A study of Mus musculus with 32 samples.

Results

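The 10 genes Defb1, Defb3, Defb4, Defb6, Defb14, Camp, Lcn2, Slpi, Wfdc12 and Reg3g, which encode antimicrobial peptides and proteins of the skin, were followed in the epidermis of mice 24 h after a single UV exposure. They were chosen by symbol, as 5 beta-defensins, the cathelicidin Camp and 4 other antimicrobial proteins, and are 10 of the 55401 mouse genes in the read counts. Of these, 8 reached 1 cpm (a read count scaled to a common library size) in at least 1 mouse and could be tested among 15546 genes, whereas Camp and Reg3g did not. RNA sequencing covered 32 mice, with 1 library per mouse and 4 mice in each of 8 groups defined by sex, genotype and exposure. The genotypes were wild type (WT) and mice labelled KO, littermates that lack the nuclear receptor PPARβ/δ and carry the genotype -/- at Ppard. All were adult hairless mice of the mixed SKH-1/SV129/BL6/J background, and the labels name no promoter or cell type for the deletion. UV mice received 120 mJ/cm2 on the back and were sampled at 24 h, and Control mice received no UV and are labelled as 0 h. By the labels, exposure and time point therefore go together in every comparison of UV with Control mice. Levels are given in cpm scaled by TMM normalization, and changes as log2 fold changes of UV against Control, averaged over both sexes with equal weight.

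Antimicrobial peptides form a chemical barrier in the outermost layers of the skin. Beta-defensins are small cationic peptides with a conserved pattern of disulfide bonds that disrupt microbial membranes and also attract immune cells through chemokine receptors. Some family members are made constantly by epithelia, and others are induced by wounding, cytokines such as IL-1 and IL-17, or microbial products through NF-κB, C/EBP and STAT factors. Slpi and Wfdc12 belong to the whey acidic protein family and inhibit proteases as well as bacteria, Lcn2 binds bacterial siderophores and so withholds iron, Camp is the precursor of the cathelicidin peptide, and Reg3g is a C-type lectin that binds the wall of Gram-positive bacteria.

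Library depth, as reads assigned to genes, was 22919428 to 40653581 with a median of 27600228.5. Ppard, the targeted gene, had 95.5 ± 6.08 cpm (SD, n = 8) in WT Control and 79.8 ± 6.87 in KO Control mice, then 282 ± 24.7 in WT UV and 210.4 ± 25.7 in KO UV mice. It was lower in KO mice after UV (log2 -0.42, adjusted P = 0.00114) but not past the threshold without UV (log2 -0.26, adjusted P = 0.156, edgeR quasi-likelihood test). Reads on Ppard thus remained in the libraries labelled KO, and since counts per gene do not show which exons they cover, they do not check the deletion. The library of KO female UV mouse 54F stood apart, with 2184 cpm summed over 7 dermal fibroblast markers against 1.86 to 98.4 cpm in every WT UV and Control mouse and 6.43 to 31.6 cpm in the other 7 KO UV mice. Skeletal muscle markers ranged from 3.71 to 2735 cpm summed over 7 genes and exceeded 1000 cpm in 9 mice, 4 Control and 5 UV, with 54F among them. None of these 7 genes passed the threshold for UV in either genotype, where edgeR gave an unadjusted p under 0.05 for 0 of them. The markers of keratinocytes, the cells of the epidermis, were high in every mouse, with 5622 to 29953 cpm summed over 7 basal and 9806 to 111766 cpm over 8 suprabasal genes.

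The 5 beta-defensin genes lie on chromosome 8, and 4 of them, Defb14, Defb4, Defb6 and Defb3, fall in one cluster between positions 19194357 and 19295291 of GRCm38, while Defb1 lies at 21776599 to 21795185. The sequences before the start sites of Defb3 and Defb6 are shown because these neighbours were alike in sequence and moved in opposite directions after UV. Both stretches are RefSeq sequences of GRCm38.p6 on the plus strand, Defb3 at chr8:19293111-19293345 and Defb6 at chr8:19225251-19225477, written 5′ to 3′, with the bases that differ in their alignment in capitals.
Defb3: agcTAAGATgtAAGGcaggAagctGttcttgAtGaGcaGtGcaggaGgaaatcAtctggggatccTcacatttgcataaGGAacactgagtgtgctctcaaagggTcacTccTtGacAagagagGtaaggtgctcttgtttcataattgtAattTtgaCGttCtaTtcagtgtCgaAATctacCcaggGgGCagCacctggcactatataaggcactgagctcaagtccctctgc
Defb6: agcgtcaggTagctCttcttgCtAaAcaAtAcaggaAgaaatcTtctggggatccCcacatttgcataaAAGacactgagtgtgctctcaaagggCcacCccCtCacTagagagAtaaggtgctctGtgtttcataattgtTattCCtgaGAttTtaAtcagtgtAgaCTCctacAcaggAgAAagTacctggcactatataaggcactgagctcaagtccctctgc
Of 237 aligned columns, 191 were identical (80.59%), 34 were mismatched and 12 held a gap, with a longest identical run of 40 bases. Aligned over the whole 250 bases before their starts they were 73.96% identical, against 45.86% to 52.94% for the other pairs among the 7 members with a RefSeq promoter.

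The bases before the start of Slpi are shown because it was the member with the highest cpm after UV. The 250 bases before its RefSeq start lie at chr2:164356508-164356757 of GRCm38.p6 on the minus strand, and the capitals mark a match to the C/EBP letters TTGCNNAA on the other strand.
Slpi: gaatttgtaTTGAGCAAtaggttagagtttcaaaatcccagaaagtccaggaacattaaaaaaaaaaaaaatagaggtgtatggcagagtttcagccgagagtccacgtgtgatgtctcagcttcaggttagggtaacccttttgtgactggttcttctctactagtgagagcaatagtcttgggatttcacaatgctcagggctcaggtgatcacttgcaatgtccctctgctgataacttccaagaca
These letters, searched on both strands of the 250 bases before each start, matched in Lcn2, Wfdc12, Slpi, Defb3 and Defb6, which is 5 of the 7 members with a promoter, and in 9.564% of 32851 promoters. An NF-κB motif matched in Defb6 and Reg3g and in 3.899% of all promoters. The match in Defb6 read GGGGATCCCC, and the bases aligned with it in Defb3 read GGGGATCCTC, which are not a match. The AP-1 letters TGANTCA (6.749% of promoters) and the STAT letters TTCNNNGAA (7.02%) matched in no member. The same held for the exact letters of the PPAR response element of the DR1 type, which matched in only 11 of 32851 promoters (0.033%). With letters this rare, the lack of a match in 7 promoters does not tell whether the members have such elements. None of these motifs overlapped another in the promoters of the members, and the letters alone do not show that a factor binds.

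Without UV, Defb6 was the most abundant member per transcript length in both genotypes. Levels per length are cpm divided by the length in kilobases of the principal transcript in GENCODE M21, here called rpkm. Genes are compared with each other on this scale. The lengths ran from 204 bases for Defb14 over 275 for Defb3 and 323 for Defb6 to 915 for Lcn2. The order rests on 1 annotated transcript per gene, and these lengths were not checked against the reads. In WT Control mice Defb6 was at 381 ± 95.9 rpkm (SD, n = 8), above Wfdc12 at 69.5 ± 33.0 and Defb14 at 61.7 ± 12.0 rpkm. Defb6 stood above Wfdc12 in 8 of 8 mice, while Wfdc12 and Defb14 overlapped and Wfdc12 was the higher in 4 of 8. Defb1 followed at 25.3 ± 3.69 rpkm, below every value of Defb14. Slpi, Defb3 and Lcn2 lay between 2.19 and 3.83 rpkm on average and overlapped one another, and Defb4 was the lowest at 0.0430 ± 0.0930 rpkm.

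After UV this order was different. In WT UV mice Defb14, Slpi and Defb6 led with 283 ± 84.5, 251 ± 69.6 and 245 ± 60.6 rpkm (n = 8 each) and could not be ranked, since Defb14 was above Slpi in 5 of 8 mice and Slpi above Defb6 in 4 of 8. Wfdc12 at 94.7 ± 39.0 and Defb3 at 89.4 ± 36.3 rpkm came next and overlapped, followed by Defb1 at 37.7 ± 13.1, Lcn2 at 11.9 ± 3.78 and Defb4 at 4.07 ± 1.2 rpkm. KO UV mice had the same 3 genes on top, with Slpi at 256 ± 46.6, Defb14 at 251 ± 88.0 and Defb6 at 212 ± 70.9 rpkm. Per length, Slpi and Defb14 thus reached the level of Defb6 after UV. In cpm the order differed. WT UV mice had Slpi at 220, Defb6 at 79.2, Wfdc12 at 73.4 and Defb14 at 57.7 cpm on average. KO UV mice had Slpi at 224, Wfdc12 at 81.1, Defb6 at 68.3 and Defb14 at 51.2 cpm.

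**Figure D1:**
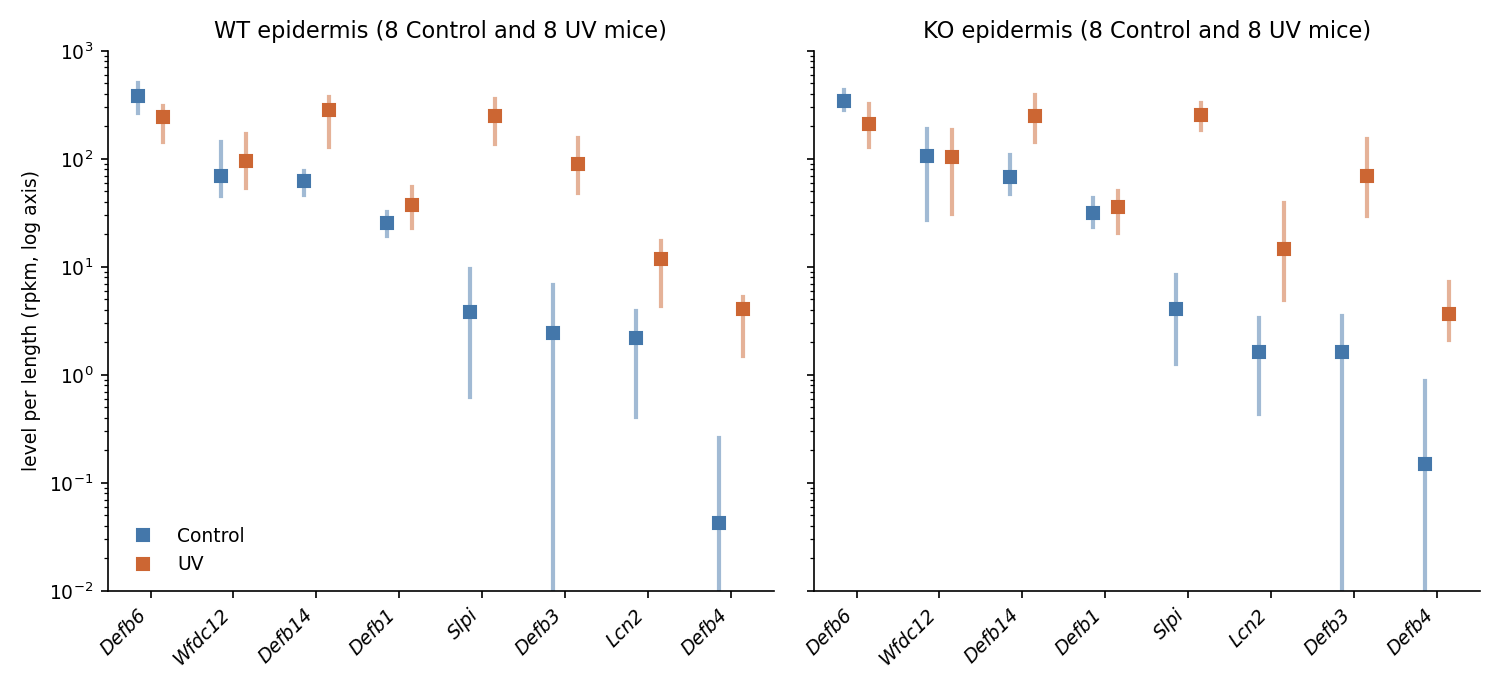
Level per transcript length (rpkm, log axis) of the 8 tested members in WT and KO epidermis, ordered by the Control mean of each genotype; squares are means of 8 mice and bars run from the lowest to the highest mouse, with bars that reach 0 cut at the bottom of the axis. Slpi, Defb14 and Defb6 share the top after UV, between 212 and 283 rpkm on average, whereas Defb6 stood alone on top without UV.

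Slpi, the secretory leukocyte protease inhibitor, rose the most among members with reads in every mouse. It ranged from 0.542 to 8.39 cpm in the WT Control mice (median 2.97) and from 120.7 to 313 cpm in the WT UV mice (median 224). In KO mice it ranged from 1.12 to 7.40 cpm without UV (median 2.71) and from 161 to 286 cpm after UV (median 222). Every UV mouse lay far above every Control mouse of either genotype. The log2 fold change was 6.07 ± 0.38 (SE) in WT and 6.02 ± 0.38 in KO mice, with adjusted P = 7.49e-14 and 9.24e-14. That is a 67.04-fold rise in WT and a 65.1-fold rise in KO mice.

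Defb3, a beta-defensin known to be induced in epithelia, was nearly silent without UV. WT Control mice had 0 to 1.86 cpm (median 0.427), and WT UV mice 13.4 to 42.7 cpm (median 23.5). KO Control mice had 0 to 0.959 cpm (median 0.458), and KO UV mice 8.17 to 42.2 cpm (median 15.7). In each genotype 1 Control mouse had no read at all, and no UV mouse came near the Control range. The log2 fold change was 5.29 ± 0.54 in WT (adjusted P = 1.49e-09) and 5.36 ± 0.56 in KO mice (adjusted P = 1.78e-09).

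Defb4 was the rarest member that passed the filter. It passed through its UV mice alone, so its test is not independent evidence of a rise. WT Control mice had 4 reads in all, in 2 of 8 mice, and WT UV mice 20 to 79 reads each, or 0.683 to 2.37 cpm (median 1.92). KO Control mice had 14 reads, 10 of them in 1 mouse, and KO UV mice 27 to 89 reads, or 0.951 to 3.28 cpm (median 1.31). In WT males, where no Control mouse had a read, the UV level was at least 19.6-fold higher than the floor of 3 counts per library. The ratio of counts per effective library was 44 in WT females (95% counting interval 16.9 to 163), 23.2 in KO males (12.7 to 47.0) and 38.3 in KO females (12.8 to 188). Fitted log2 fold changes of 7.09 in WT and 4.73 in KO mice (adjusted P = 2.29e-08 and 6.58e-07) depend on the prior count added to these low values. The WT value became 7.77 without WT female Control mouse 63F, and the KO value 6.11 without KO male Control mouse 34M and 6.14 without KO female Control mouse 69F. The counting intervals were taken on reads summed over the mice of each group, so they cover counting error only and leave out the spread between mice. In KO males, 10 of the 11 Control reads came from mouse 34M. The reads also carry no molecular identifiers.

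Defb14, the mouse counterpart of human beta-defensin 3, was already well expressed without UV and rose further. It ranged from 9.48 to 15.7 cpm in WT Control mice (median 12.4) and from 26.2 to 76.0 in WT UV mice (median 63.6). KO mice ranged from 9.69 to 21.9 cpm without UV (median 12.9) and from 29.2 to 80.02 cpm after UV (median 50.02). The ranges of UV and Control mice did not overlap in either genotype. The log2 fold change was 2.19 ± 0.18 in WT (adjusted P = 1.91e-11) and 1.86 ± 0.18 in KO mice (adjusted P = 4.17e-10), a 4.55-fold and a 3.63-fold rise.

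Lcn2, or lipocalin 2, rose from a low level. WT Control mice ranged from 0.370 to 3.54 cpm (median 2.21) and WT UV mice from 4.01 to 15.9 cpm (median 11.05). KO Control mice ranged from 0.396 to 3.09 cpm (median 1.45) and KO UV mice from 4.51 to 35.9 cpm (median 10.6). The highest value, 35.9 cpm, came from a single KO female, and the lowest UV mouse of each genotype still exceeded every Control mouse of that genotype. The log2 fold change was 2.44 ± 0.42 in WT (adjusted P = 9.77e-06) and 3.14 ± 0.44 in KO mice (adjusted P = 3.26e-07).

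Defb6, the leading beta-defensin of unexposed epidermis, was the member that fell. WT Control mice ranged from 85.2 to 163 cpm (median 116) and WT UV mice from 46.5 to 99.6 cpm (median 82.5). KO Control mice ranged from 90.5 to 141 cpm (median 115) and KO UV mice from 41.2 to 105 cpm (median 62.3). Unlike the 5 genes above, UV and Control mice overlapped in both genotypes. It fell by 0.64 ± 0.18 on the log2 scale in WT (adjusted P = 0.0021) and by 0.74 ± 0.18 in KO mice (adjusted P = 0.000545), so that Control mice were 1.55-fold and 1.67-fold higher. Its neighbour Defb3, alike in the bases before the start, went from 0.673 to 24.6 cpm on average in the same WT mice.

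Defb1, a beta-defensin made constantly by many epithelia, changed less than the genes above. Its means were 22.0 ± 3.22 cpm in WT Control, 32.9 ± 11.4 in WT UV, 27.8 ± 7.01 in KO Control and 30.9 ± 8.89 cpm in KO UV mice (SD, n = 8 each). It rose in WT mice (log2 0.57 ± 0.15, adjusted P = 0.00187), and in KO mice the difference was 0.15 ± 0.15 (adjusted P = 0.381). Wfdc12 passed the threshold in neither genotype, with log2 0.45 ± 0.31 in WT (adjusted P = 0.193) and -0.08 ± 0.31 in KO mice (adjusted P = 0.818). Its spread between mice was wide, from 35.1 to 111 cpm among WT Control and from 21.0 to 146 cpm among KO Control mice. The 95% interval of its UV effect ran from -0.18 to 1.08 in WT and from -0.71 to 0.55 in KO mice. Leaving out WT male Control mouse 56M, the highest of its group, brought the WT value to 0.68 and past the threshold (adjusted P = 0.0494).

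**Figure D2:**
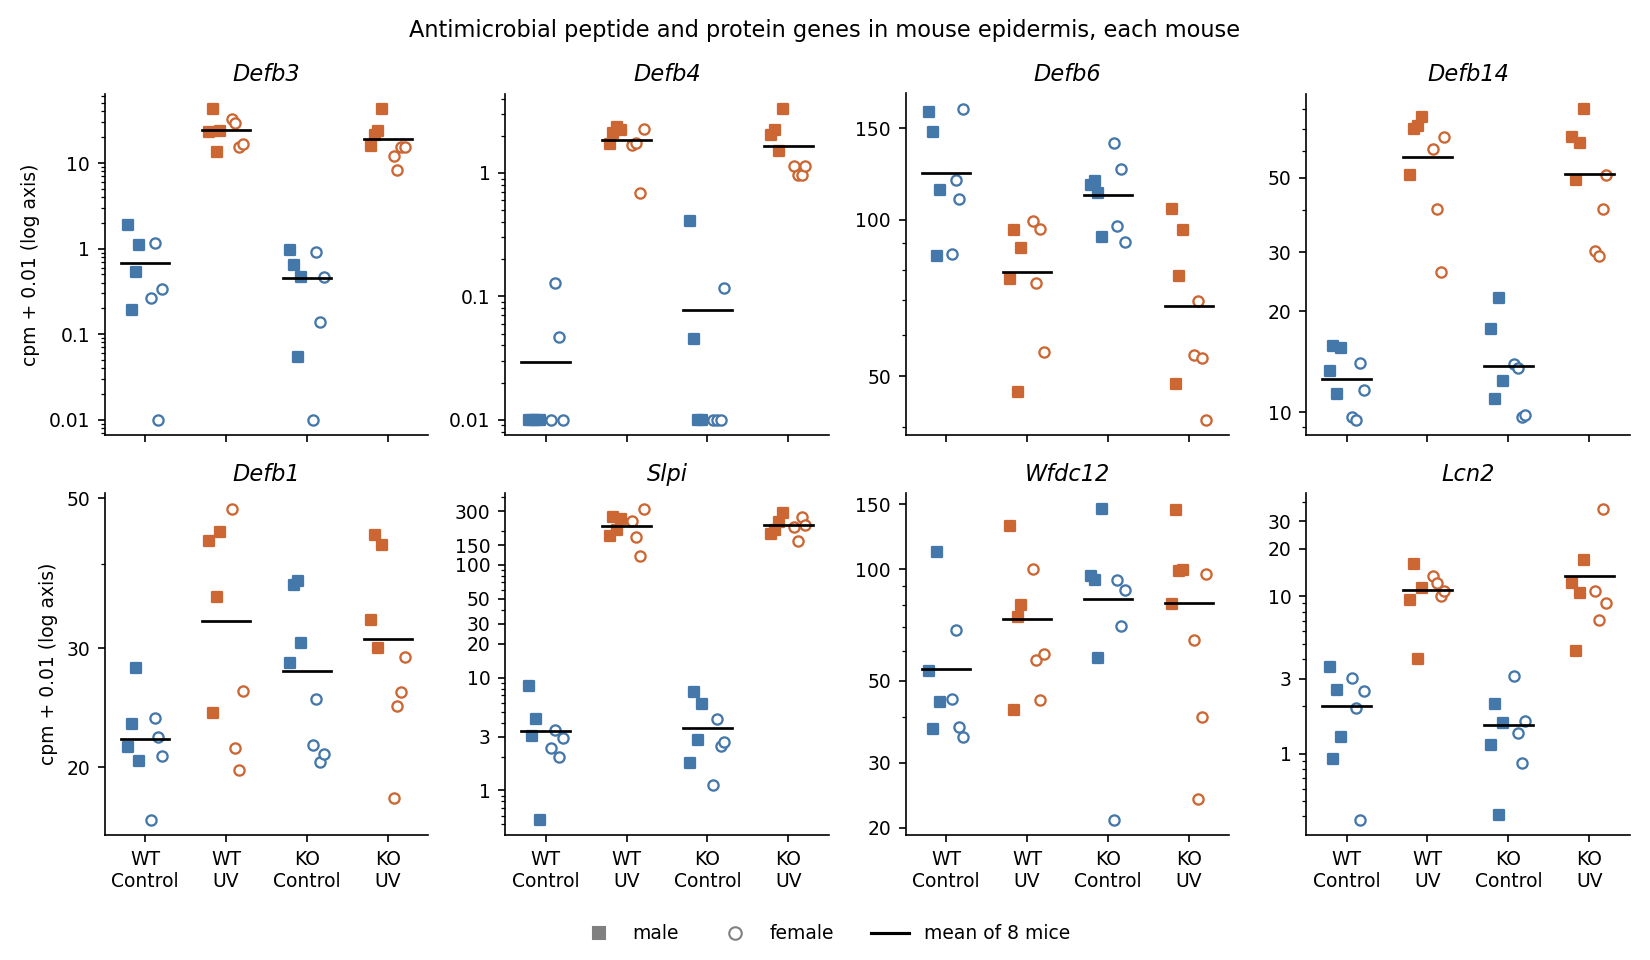
Level of each tested member in each of 32 mice (cpm plus 0.01, log axis), by genotype and exposure; filled squares are males, open circles females and black lines means of 8 mice. Defb3, Defb4, Defb14, Slpi and Lcn2 separate UV from Control mice in both genotypes, Defb6 lies lower after UV with overlap, and Defb1 and Wfdc12 overlap throughout.

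By count, 6 of the 8 tested members rose and 1 fell in WT mice, where 34.5% of all 15546 genes rose and 36.5% fell. In KO mice 5 rose and 1 fell, against 37.3% and 33.5% of all genes. The median log2 fold change of the 8 was 2.31 in WT and 2.5 in KO mice, beside -0.01 and 0.09 over all genes. UV and Control mice did not overlap for 5 members in each genotype, the same 5 genes, and for 43.4% of all genes in WT and 35.1% in KO mice. One of the 5, Defb4, was kept by the filter only for its UV level. With this many genes changed, a count of called members is not by itself a result about them. These are bulk tissue values, in which fewer cells of a type and less RNA per cell cannot be told apart.

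Camp and Reg3g were at or near the floor. Camp had 8 reads in 5 of 32 mice, with at most 3 in any library and no excess after UV, where 4 of the reads fell. Reg3g had 5 reads, all in KO female Control mouse 44F and so above the floor there, and none in any UV mouse. A floor of 3 counts per library allows at most 0.0803 to 0.132 cpm, depending on the library, in a mouse without reads, so that expression under this level was not detectable at this depth. Of 42 beta-defensin genes in the annotation, the 5 members held 99.859% of the reads. Of the other 37 genes, 28 had no read in any mouse and 1, Defb7, reached 1 cpm. Runs of identical sequence between transcripts of the members and of other beta-defensins were at most 33 bases, apart from 72 bases that Defb4 shares with Defb8. Reads of Defb4 short enough to lie wholly within that run are uncertain. Defb8 itself had no read in any mouse.

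Whether PPARβ/δ deficiency altered the response was asked by the genotype-by-UV interaction. It passed the threshold for 0 of the 8 tested members, and for 0.765% of all genes (edgeR quasi-likelihood test). One member, Defb4, had an unadjusted p under 0.05 (adjusted P = 0.236), with a difference of -2.36 on the log2 scale that rests on 4 and 14 Control reads. For Slpi the difference between the effects was -0.04 with a 95% interval from -0.98 to 0.89. For Defb3 it was 0.07 (-1.33 to 1.47), and for Lcn2 it was 0.70 (-0.48 to 1.88). The intervals were narrower for Defb14, at -0.32 (-0.83 to 0.18), Defb6, at -0.10 (-0.61 to 0.41), and Defb1, at -0.41 (-0.86 to 0.03). For Wfdc12 it was -0.54 (-1.43 to 0.35).

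Between genotypes at the same exposure, no member was called either. Without UV, 0 of 8 members and 0.206% of all genes passed, and after UV 0 of 8 members and 3.31% of all genes. Only Defb4 had an unadjusted p under 0.05 without UV (adjusted P = 0.568), and none had one after UV. The largest differences without UV after Defb4 were those of Wfdc12, at 53.8 ± 25.6 cpm in WT and 83.1 ± 35.8 in KO Control mice (log2 0.62, adjusted P = 0.593), and of Defb3, at 0.673 and 0.448 cpm (log2 -0.51, adjusted P = 0.889). After UV, Defb3 was at 24.6 ± 9.97 cpm in WT and 19.2 ± 10.5 cpm in KO mice (log2 -0.44, adjusted P = 0.612).

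**Figure D3:**
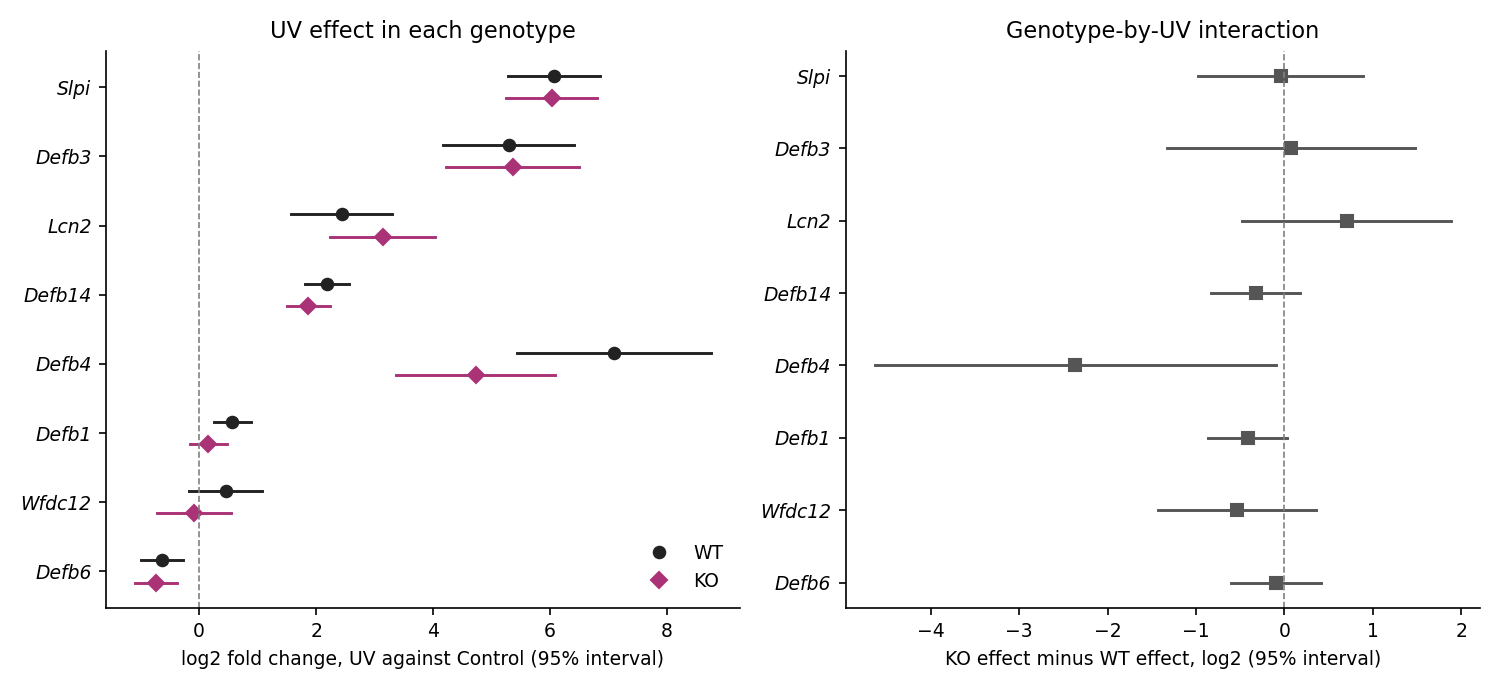
Left, log2 fold change of UV against Control in WT (circles) and KO mice (diamonds) for the 8 tested members; right, the KO effect minus the WT effect; bars are 95% intervals of the edgeR fit with n = 8 UV and 8 Control mice per genotype. The 2 genotypes lie side by side for Slpi, Defb3 and Defb6, and the interval of the difference includes 0 for every member but Defb4, whose adjusted P was 0.236.

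The UV effect was also fitted in each of the 4 sex and genotype strata. These are parts of the same mice, so a rise in them is not further evidence for the rises above. Slpi, Defb3, Defb4, Defb14 and Lcn2 rose and were called in all 4, where Defb4 was kept by the filter only for its UV level. The log2 fold change of Slpi ran from 5.67 in KO males to 6.37 in KO females. That of Lcn2 ran from 2.31 in WT males to 3.18 in KO females. The latter was 2.35 without KO female UV mouse 66F, which had the highest Lcn2 level, and 4.17 without the 9 mice high in skeletal muscle markers. Of the 8 members, 7 were called in WT males (60.9% of all genes), 5 in WT females (61.3%), 5 in KO males (61.7%) and 6 in KO females (60.7%). The calls of Defb1 and Defb6 were not the same in the 4 strata, and in WT females they turned on single mice. Defb1 was called in WT males (log2 0.67, adjusted P = 0.0101) and not in the other 3 strata. In WT females it was called by DESeq2 (0.50, adjusted P = 0.0438) and without any 1 of mice 57F and 59F (WT female UV), 38M (WT male UV), 54F (KO female UV) and 62F (KO female Control), with 0.49 to 0.66 and adjusted P values from 0.0131 to 0.0481. Defb6 fell by 0.73 in WT males (adjusted P = 0.0134) and by 1.04 in KO females (adjusted P = 0.000812), and its log2 fold change was -0.55 in WT females (adjusted P = 0.0583) and -0.43 in KO males (adjusted P = 0.135). Leaving out WT male Control mouse 43M or WT male UV mouse 57M took away the Defb6 call in WT males (adjusted P = 0.0552 and 0.0746). In WT females Defb6 was called without WT female Control mouse 61F, WT female UV mouse 51F or WT male Control mouse 56M (adjusted P = 0.0399, 0.0404 and 0.0498). The sex-by-UV interaction itself was called for 0 of 8 members and for 0% of all genes, of which 1091 had an unadjusted p under 0.05 and none of these was a member.

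Mice of the same group also differed in these genes. After subtraction of the mean of each of the 8 groups, the log2 cpm of the genes most like each member was compared over the 32 mice and 14914 other genes with a mean of at least 10 counts. Defb3 varied most like Sprr1b (r = 0.81), a cornified envelope precursor, and S100a8 and S100a9 (r = 0.79 and 0.78), the subunits of calprotectin. Slpi varied most like Sprr2i (r = 0.81), Wfdc12 like Serpinb6c (r = 0.83) and Gjb6 (r = 0.77), and Defb14 like Gsta1 (r = 0.75) and Csta1 (r = 0.72). The highest values for the others were 0.71 for Defb1 with Ctnna1, 0.72 for Lcn2 with Skp2, 0.69 for Defb6 with Fut10 and 0.68 for Defb4 with Cfap45. Among the members themselves r ran from -0.51 for Defb6 and Wfdc12 to 0.50 for Defb3 and Wfdc12, and Defb3 and Defb6 did not vary together (r = -0.01). The genes named are those with the highest r among the 14914 compared, so their r is high in part through this choice. Depth and the markers of other tissues also varied among these mice, so the values are given as a description and were not tested.

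Other genes of antimicrobial defense are given by list, to be read beside the 34.5% of all genes that rose and 36.5% that fell in WT and the 37.3% and 33.5% in KO mice. Of 18 other antimicrobial proteins tested, 9 rose and 3 fell in WT mice, and 10 rose and 3 fell in KO mice. Wfdc3, which rose by 2.56 in WT mice, reached 1 cpm in UV mice alone, so its test is not independent evidence of a rise. The median log2 fold change of the 18 was 1.32 in WT and 1.38 in KO mice. S100a7a, the mouse psoriasin, rose by 5.93 ± 0.46 in WT and 4.95 ± 0.43 in KO mice on the log2 scale. The calprotectin genes S100a9 and S100a8 rose by 4.36 and 4.29 in WT and by 4.8 and 4.6 in KO mice. Adm, which encodes the antimicrobial hormone adrenomedullin, rose by 3.98 in WT and 3.74 in KO mice. All of these had adjusted P values of 5.1e-09 or less in both genotypes, and the interaction was called for none of the 18.

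Cytokines known to induce antimicrobial peptides lay at a median of 2.24 (log2, UV against Control) in WT and 2.18 in KO mice. Of 9 tested, 6 rose and 1 fell in WT, and 5 rose and 3 fell in KO mice. Il24 rose by 8.08 ± 0.48 in WT and 7.25 ± 0.44 in KO mice, Il1b by 3.36 and 4.46, Il20 by 3.74 and 4.07 and Il19 by 2.51 and 2.34. Il20 reached 1 cpm in UV mice alone, so its test is not independent evidence of a rise. Leaving out KO female Control mouse 62F brought Il24 to 7.86 in KO mice, and leaving out WT male Control mouse 56M brought Il19 to 3.31 in WT mice. Il17a and Il22, the T cell cytokines that induce beta-defensins in skin, stayed under 1 cpm in every mouse, with Il22 at 1 read in all 32 libraries. The T cell marker list fell at the same time, with 8 of 9 genes lower in each genotype and a summed level of 115 to 234 cpm in WT Control and 21.9 to 65.1 cpm in WT UV mice.

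Of 17 receptors and adaptors for these signals, 7 rose and 7 fell in WT and 7 rose and 8 fell in KO mice, shares near those of all genes, with medians of -0.10 and -0.19 on the log2 scale. Tlr1 rose by 2.55 in WT and 3.84 in KO mice and Tlr4 by 1.81 and 2.28. Tlr6 rose in KO mice (2.71, adjusted P = 0.0013) and had 1.24 in WT mice (adjusted P = 0.105), and Nod1, a cytosolic sensor of bacterial peptidoglycan, fell by 2.27 and 2.32. Tlr1, Tlr4 and Tlr6 reached 1 cpm in UV mice alone, so their tests are not independent evidence of a rise. In KO mice, Tlr4 was at 1.62 without mouse 54F and Tlr6 at 2.12 without KO male UV mouse 59M. Among transcription factors 10 of 13 rose and 1 fell in both genotypes, led by the NF-κB subunit Rela (2.06 in WT and 2.00 in KO), Bcl3 (1.76 and 1.24), Hif1a (1.37 and 1.09) and Nfkb2 (1.27 and 1.26). In the vitamin D axis, which drives the human cathelicidin gene, Cyp27b1 rose by 1.69 and 1.61 while the receptor genes Vdr and Rxra fell by 0.55 and 0.93 in WT and by 0.78 and 0.97 in KO mice. No gene of these lists was called for the interaction.

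Proteases of the kallikrein family, which cut antimicrobial precursors at the skin surface, were tested with their inhibitors. Of 7 proteases and inhibitors tested, 5 rose and 0 fell in WT, and 5 rose and 1 fell in KO mice. Klk14 rose by 4.03 in WT and 4.10 in KO mice, Klk6 by 3.58 and 3.26, Klk13 by 1.97 and 1.8 and Klk7 by 0.99 and 0.63. Klk14 reached 1 cpm in UV mice alone, so its test is not independent evidence of a rise. Among receptors and partners of the secreted members, 2 of 7 rose and 1 fell in WT and 6 rose and 1 fell in KO mice. The same limit as for Klk14 holds for Fpr2 and for Plscr1, which rose in KO mice only. Fpr2, a receptor of the cathelicidin peptide, rose by 3.82 and 3.73, Ccr2, a receptor for beta-defensins on monocytes, by 1.35 and 2.66, and Slc22a17, a receptor for lipocalin 2, fell by 1.62 and 1.13.

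Mmp9, the gelatinase that lipocalin 2 binds and stabilises, was the gene of these lists with a called interaction. It went from 21.6 ± 8.87 to 16.0 ± 7.19 cpm in WT mice (log2 -0.46, adjusted P = 0.14) and from 16.2 ± 5.68 to 38.8 ± 14.8 cpm in KO mice (log2 1.2, adjusted P = 0.000382). The difference was 1.66 ± 0.39 on the log2 scale (adjusted P = 0.0385). It missed the threshold without the 9 mice high in skeletal muscle markers (1.77, adjusted P = 0.0975), without KO female UV mouse 54F, the library with high fibroblast markers (1.64, adjusted P = 0.0515), and without 17 of the other mice taken singly, with a log2 difference between 1.49 and 1.68 in these fits. The summed level of 10 monocyte and macrophage markers rose in both genotypes, whereas Mmp9 was called higher in KO mice only. This sum was 34.3 to 89.9 cpm in WT Control and 111 to 191 in WT UV mice. In KO mice it was 29.5 to 83.7 cpm without UV, then 105 to 252 in 7 UV mice and 1581 in mouse 54F. Of the 10 genes, 7 rose and 1 fell in WT, and 8 rose and 0 fell in KO mice, to be read beside the shares of all genes given above. The gene that fell in WT was Csf1r (log2 -0.95, adjusted P = 0.00813), and Adgre1 was at -0.75 (adjusted P = 0.158). Ly6c2 reached 1 cpm in UV mice alone. The part of these markers in the result was not tested.

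**Figure D4:**
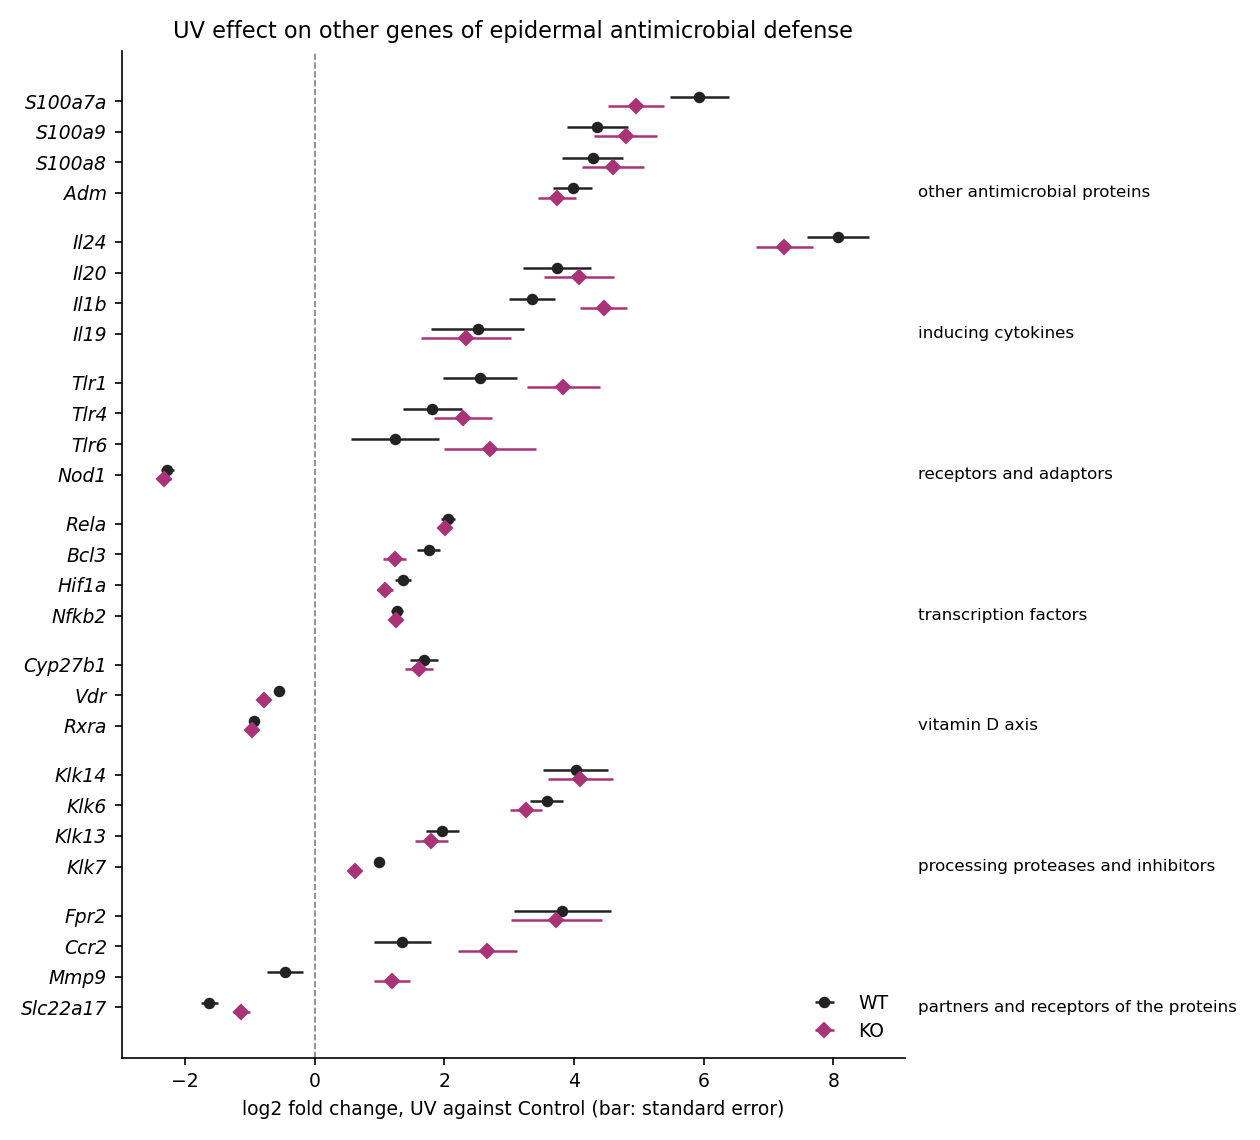
Log2 fold change of UV against Control (points) with standard errors (bars) for the genes named from 7 lists of antimicrobial defense, in WT (circles) and KO mice (diamonds). Most points of a gene lie close together, from 8.08 and 7.25 for Il24 down to -2.27 and -2.32 for Nod1, while those of Mmp9 lie on either side of 0.

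Neutrophils store Camp, Lcn2, S100a8 and S100a9, so their markers are given beside these genes. Of 12 markers, 6 could be tested, and 3 of these, Mmp8, Fpr1 and Retnlg, reached 1 cpm in UV mice alone. In WT mice 4 rose. They were Csf3r (log2 2.77), Mpo (1.03), Mmp8, with 8 reads in all Control and 137 in all UV mice, and Fpr1, with 0 and 74 reads. In KO mice 5 rose and 1 fell. Csf3r rose by 3.87 and Mpo by 1.49, Mmp8 went from 0 to 244 reads, Fpr1 from 6 to 135 and Retnlg from 12 to 126, while Cxcr2 fell by 0.68. Of the 6 untested markers, Elane had no read in any mouse and Ctsg 1 read in all, and Ly6g, Prtn3, Ngp and Ltf averaged at most 0.113 cpm in any of the 4 conditions. The summed level of the 12 ranged from 19.4 to 42.3 cpm in WT Control, 25.8 to 46.6 in WT UV, 24.6 to 62.6 in KO Control and 25.0 to 52.7 in KO UV mice. Cxcr2 held most of it, with 28.6 and 29.2 cpm on average in WT Control and UV mice and 39.4 and 24.4 cpm in KO Control and UV mice. The part of neutrophils in the changes of Lcn2, S100a8 and S100a9 was not tested. Suprabasal keratinocyte markers fell, 7 of 8 in WT and 8 of 8 in KO mice, and their part in the changes of the members was not tested. Without mouse 54F, 5 members rose and 1 fell in KO mice, with log2 fold changes of 6.10 for Slpi, 5.46 for Defb3, 4.77 for Defb4, 3.28 for Lcn2, 1.93 for Defb14 and -0.79 for Defb6. Without the 9 mice high in skeletal muscle markers, 7 members rose and 1 fell in WT mice, with Wfdc12 then called (0.76, adjusted P = 0.0287), and 5 rose and 1 fell in KO mice.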

How the data were processed

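RNA was sequenced from the epidermis of 32 mice, 1 library each. Per the labels and the submitters' processing notes, the authors demultiplexed with bcl2fastq, trimmed reads with cutadapt 1.8, aligned them with STAR 2.5.3a to GRCm38 and counted reads per gene with HTSeq 0.9.1. The deposited values are whole-number read counts per gene without normalization. The paper names another build, so positions are given from GENCODE M21 and RefSeq and not from the counts. Of 55401 gene identifiers, 55141 had a symbol in GENCODE M21 (GRCm38), which also gave transcript lengths. Reads without a gene (6.80% to 9.75% of uniquely aligned reads) were left out.

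The filter kept genes that reached 1 cpm in 1 mouse or more, and counts were scaled with TMM and fitted with 8 group means in edgeR's quasi-likelihood model (edgeR 4.0.16, R 4.3.3). P values of the 10 contrasts were corrected over all 15546 genes after Benjamini and Hochberg, and a gene was called at an adjusted P under 0.05. Standard errors and intervals follow from the F statistics. P values set each contrast of group means against the spread between mice within the groups, as estimated by the model. The 48 pairs of libraries within groups differed by more than sampling noise (chi-square per degree of freedom of at least 21.2), and none was a duplicate. The code was checked on simulated data. The alternatives were RLE normalization, DESeq2 1.42.0, limma-trend (limma 3.58.1), filterByExpr, no filter, mice of 1 genotype only, sex as an additive term, each mouse left out, library sizes without TMM, and the 9 mice with over 1000 cpm of skeletal muscle markers left out, the last 2 added after seeing the data. The study's own methods used limma-trend.

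The members and lists were chosen with earlier results of these data known. Named besides the members and Ppard were, of each list other than cell type markers, up to 4 genes with the largest log2 fold change among those called at a mean of at least 10 counts, any with a called interaction, and the genes most like each member. Any further gene was picked with its values in view.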

Additional observations from a re-analysis of the deposited data

Results flagged for a closer look

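In groups of 4 mice, 1 mouse lay far from the other 3, by Dixon's criterion, in 3 of 63 groups of members examined. Chance gives about 1 in 20 for normally distributed values, which low counts are not. Lcn2 was at 35.9 cpm in KO female UV mouse 66F, against 7.01 to 10.7 cpm in the other 3. Defb4 was at 0.400 cpm in KO male Control mouse 34M, against 0 to 0.0354 cpm, and at 0.106 cpm in KO female Control mouse 69F, whose 3 companions had no read.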

How the results depend on the processing

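Under RLE normalization, DESeq2, limma-trend, filterByExpr, no filter, library sizes without TMM, each mouse left out and the 9 mice high in skeletal muscle markers left out, the number of members called stayed at 6 for UV in KO mice and at 0 for both interactions and both genotype differences. Mice of 1 genotype only also gave 6 for UV in KO mice, and sex as an additive term 6 for UV in KO mice and 0 for the genotype-by-UV interaction and both genotype differences, the comparisons these fits allow. It stayed at 7 for UV in WT mice, or 8 without WT male Control mouse 56M or without those 9 mice, and was 5 or 6 in WT females and 6 or 7 in WT males. DESeq2 called Defb1 in WT females (0.50, adjusted P = 0.0438), where leaving out 1 mouse gave 0.10 to 0.66. The Mmp9 interaction was lost with no filter (1.61, adjusted P = 0.0649) and with sex as an additive term (1.66, adjusted P = 0.056). Among called log2 fold changes over both sexes, those moved by more than 1.5-fold were, under limma-trend, Defb4 in WT (5.27), Il20 in WT and KO (3.08 and 3.40), Il24 and Il19 in KO (7.89 and 3.27) and Tlr1 in WT mice (1.89), and with sex as an additive term Defb4 and Il24 in WT mice (6.32 and 7.46).

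Changes of sign occurred only for differences that were not called. For Slpi the interaction became 0.0246 and the genotype difference without UV -0.0047 with library sizes, and the genotype difference after UV became -0.0073 with filterByExpr and -0.0118 with no filter. With 1 mouse left out, these 3 ran from -0.36 to 0.14, from -0.12 to 0.39 and from -0.085 to 0.15. The Defb3 interaction ran from -0.47 to 0.49, its genotype difference without UV from -0.941 to 0.0335 and its sex-by-UV interaction from -0.0458 to 0.795. Lcn2 ran from -0.14 to 0.41 between genotypes after UV and from -0.25 to 0.40 for sex by UV. Wfdc12 ran from -0.16 to 0.23 between genotypes after UV, from -0.318 to 0.0591 for UV in KO mice and from -0.0691 to 0.379 in KO males, and Defb1 from -0.201 to 0.0732 between genotypes after UV and from -0.0449 to 0.27 for UV in KO females. Without the 9 mice, Wfdc12 became 0.0152 for UV in KO mice, the Slpi interaction 0.0301, and the sex-by-UV interactions of Defb1 and Defb14 0.0238 and 0.1237, and Defb4 rose by 8.88 in WT mice. The cause was not tested. Replicate numbers are those of single mice, and no paired analysis was possible because no mouse appears in more than 1 group. Depth limits Defb4 without UV, Camp and Reg3g, which were at or near the floor.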

Other observations

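After UV, 3 members were higher in each of the 4 KO males than in each of the 4 KO females. Defb4 ranged from 1.497 to 3.28 cpm in the males and from 0.951 to 1.13 cpm in the females, Defb3 from 15.9 to 42.2 and from 8.17 to 15.4 cpm, and Defb1 from 30.004 to 44.1 and from 17.99 to 29.1 cpm. Defb14 overlapped, with 49.2 to 80.02 cpm in the males and 29.2 to 50.9 cpm in the females, as did Defb6, Lcn2, Slpi and Wfdc12. In WT UV mice the sexes overlapped for Defb4 (1.71 to 2.37 cpm in males, 0.683 to 2.28 in females), Defb3 (13.4 to 42.7 and 15.4 to 32.9) and Defb1 (24.1 to 44.6 and 19.8 to 48.2). Defb1 was also higher in each male without UV in KO mice, at 28.5 to 37.7 cpm against 20.4 to 25.2 cpm in females. The share of all genes with such a separation was not computed. The sex difference within a condition was not tested, and these values were chosen after they were seen.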
